A study of Mus musculus with 19 samples.

Results

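MHC class I genes, their peptide loading partners and the immunoproteasome were followed here as a group of 10 genes, taken by name out of the 56980 genes of the count table. The members were the heavy chains H2-K1 and H2-D1, the light chain B2m, the peptide transporter genes Tap1 and Tap2, the loading factor Tapbp, the immunoproteasome subunits Psmb8, Psmb9 and Psmb10, and the transactivator Nlrc5. All 10 were matched by symbol to 1 Ensembl gene each, and all 10 passed the low-count filter that left 18739 genes for testing.

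RNA was sequenced from CD11b+ brain cells, isolated by magnetic sorting (MACS) from 19 male mice aged 3 to 4 months. The labels give the tissue as whole brain, while the study's methods leave out the cerebellum and olfactory bulb. CD11b is an integrin on the surface of microglia and other myeloid cells. There were 5 PARK7/DJ-1 KO and 5 wildtype (WT) littermates killed 6 h after an intraperitoneal injection of lipopolysaccharide (LPS, 4 μg/g body weight, from E. coli), and 5 KO and 4 WT mice given saline vehicle (PBS), called baseline here. The KO line carries a gene trap insertion in Park7 in all cells, backcrossed to C57BL/6NCrl, so it does not separate microglia from the rest of the body. Each library came from 1 mouse.

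MHC class I molecules display fragments of a cell's own proteins to cytotoxic T cells. The fragments are cut by the proteasome, whose catalytic subunits are exchanged for immunoproteasome subunits under interferon, and are carried by the TAP transporter into the endoplasmic reticulum, where tapasin (Tapbp) helps to load them onto a heavy chain paired with β2-microglobulin (B2m). NLRC5 drives transcription of class I genes through a conserved promoter region, beside interferon regulatory factors and NF-kappaB. Microglia raise class I in inflammation.

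Promoter sequence is shown for H2-K1, H2-D1 and Psmb10, so that the letters stand beside the values. They are examples of a kappaB match, a GAS match and a match to GAANNGAA, which is not the interferon response core. In GRCm39, with GENCODE canonical start sites, the 250 bases before each start were searched on both strands. The stretches read 5′ to 3′ along the gene's own strand. H2-K1 is shown at chr17:34219383-34219452 on the minus strand, 62 to 131 bases before its start. H2-D1 is shown at chr17:35481638-35481686 on the plus strand, 5 to 53 bases before its start. Psmb10 is shown at chr8:106665078-106665116 on the minus strand, 1 to 39 bases before its start. In the H2-K1 line the capitals mark a kappaB match, in which overlapping hits run together, and then the reverse complement of GAANNGAA. In the H2-D1 line they mark TTCNNNGAA, the GAS letters, and in the Psmb10 line the reverse complement of GAANNGAA.
H2-K1: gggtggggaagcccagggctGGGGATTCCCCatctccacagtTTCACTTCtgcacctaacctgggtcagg
H2-D1: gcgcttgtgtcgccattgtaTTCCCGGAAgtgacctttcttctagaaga
Psmb10: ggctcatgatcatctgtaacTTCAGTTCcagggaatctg

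The interferon response core GAAANNGAA was found in 0 of the 10 member windows and in 7.54% of 21631 promoters of the same length. GAANNGAA, which has 1 letter fewer and so is never the same match, was added after the H2-K1 site had been seen. It lay in the windows of H2-K1, Tapbp, Psmb8 and Psmb10, that is 4 of 10, and in 16.9% of all promoters. TTCNNNGAA lay in H2-D1 alone among the members and in 7.73% of promoters, and kappaB in H2-K1 alone and in 4.21%. CCAAT, bound by NF-Y, lay in H2-K1, Tap1 and Tapbp and in 36.5% of promoters. TGACG, the core of the X2 box used by NLRC5, lay in H2-K1 and Psmb8 and in 18% of promoters. The windows of B2m, Tap2, Psmb9 and Nlrc5 held none of these letters. The Psmb9 window (34406739 to 34406988) lay inside the annotated Tap1 gene, past the Tap1 start at 34406375. The Tap1 window (34406125 to 34406374) lay inside the annotated Psmb9 gene. The bases between these starts were in neither window, so the lack of letters for Psmb9 holds for its 250 bases only. A match is a string of letters and not a measured site.

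The genes lie close together. Psmb9, Tap1, Psmb8 and Tap2 sit within 34.9 kb of chromosome 17 (34400960 to 34435829), and H2-K1, Tapbp and H2-D1 are on the same chromosome. B2m is on chromosome 2, and Psmb10 and Nlrc5 on chromosome 8. Tap1 and Psmb9 are read in opposite directions from starts 363 bases apart, and 743 exon bases belong to both, which is 12.4% of Tap1 and 19.6% of Psmb9. The libraries were stranded, but the strand setting of the counting is not given in the sources used here, so reads of this stretch may belong to either gene. Tapbp shares 20.9% of its exon bases with Zbtb22 on the same strand and 25.6% with Gm19412 on the opposite strand. Opposite-strand overlaps also cover 14.6% of Psmb8 (with Gm20496) and 11.2% of Tap2 (with Gm15821), and the same doubt holds for their reads. H2-K1, H2-D1 and the H2-Q genes are related class I genes, whose likeness in sequence was not measured here. The treatment of reads that fit several genes is not given in the sources used here, so their counts are uncertain to an unknown degree.

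Sequencing depth lay between 11936364 and 22788884 counts a library (median 17211939). The lowest count of any member in any library was 207, for Psmb9. Park7, the targeted gene, lay between 20.6 and 32.1 CPM (counts scaled to a library size of 1000000 after TMM normalization) in the 9 WT libraries and between 0.457 and 5.38 CPM in the 10 KO libraries, so the genotype labels held in all 19. Microglial markers were abundant in every library, with a summed level of 24831 to 39842 CPM over 10 markers at baseline and 10637 to 17122 CPM after LPS. The 10 neutrophil and monocyte markers summed to 35.6 to 196 CPM at baseline and 152 to 589.9 CPM after LPS. The 10 T and NK lymphocyte markers summed to at most 3.39 CPM at baseline and 11.9 CPM after LPS, with Cd3d and Cd3g at 0 in the KO baseline group and Cd3g and Cd2 at 0 in the KO LPS group. The 4 B lymphocyte markers summed to 1.04 to 12 CPM. The 7 border-associated macrophage markers summed to 274 to 652 CPM, the 7 endothelial markers to 79.1 to 1008 CPM, the 5 oligodendrocyte markers to 515 to 11235 CPM, the 5 astrocyte markers to 159 to 3966 CPM and the 4 neuron markers to 11 to 93.8 CPM. In such bulk samples, fewer cells of a type and less RNA per cell cannot be told apart.

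In mice given saline, transcripts of the class I chains were the most abundant of the group and those of the transactivator the least. Per length of the canonical transcript, as RPKM (CPM divided by the length in kilobases), B2m was the most abundant member in WT baseline mice, at 626 ± 114 (SD, n = 4). H2-D1 at 176 ± 27.2 RPKM and H2-K1 at 173 ± 23.9 RPKM followed, with overlapping ranges, and Tapbp stood at 127 ± 19.5 RPKM, its range overlapping that of H2-K1. There was then a gap. Psmb10, Psmb8, Tap2, Tap1 and Psmb9 had means from 23.7 down to 16.4 RPKM, each overlapping its neighbour in that order. Nlrc5 was lowest at 2.58 ± 0.33 RPKM, below the lowest Psmb9 value. The KO baseline mice gave the same order, from B2m at 649 ± 162 RPKM to Nlrc5 at 2.1 ± 0.575 RPKM (n = 5). With all exons of a gene as its length, B2m stayed first and Nlrc5 last, Tap2 and Psmb8 changed places in both groups, and Tapbp and H2-K1 in KO mice.

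After LPS the order had shifted. H2-K1 stood above H2-D1, at 488 ± 87.2 against 395 ± 71.3 RPKM in WT mice (n = 5) and at 499 ± 110.1 against 379 ± 48.9 RPKM in KO mice (n = 5), but the ranges overlapped, and with all exons as the length H2-D1 remained above H2-K1. Tap1 moved up in the order to stand directly after Tapbp, clear of Psmb10 in both genotypes. Nlrc5 reached 29.9 ± 8.27 RPKM in WT mice and overlapped with Psmb8 and Psmb9. Psmb9 was now the lowest member, at 20.5 ± 4.08 RPKM in WT and 16 ± 2.9 RPKM in KO mice.

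**Figure D1:**
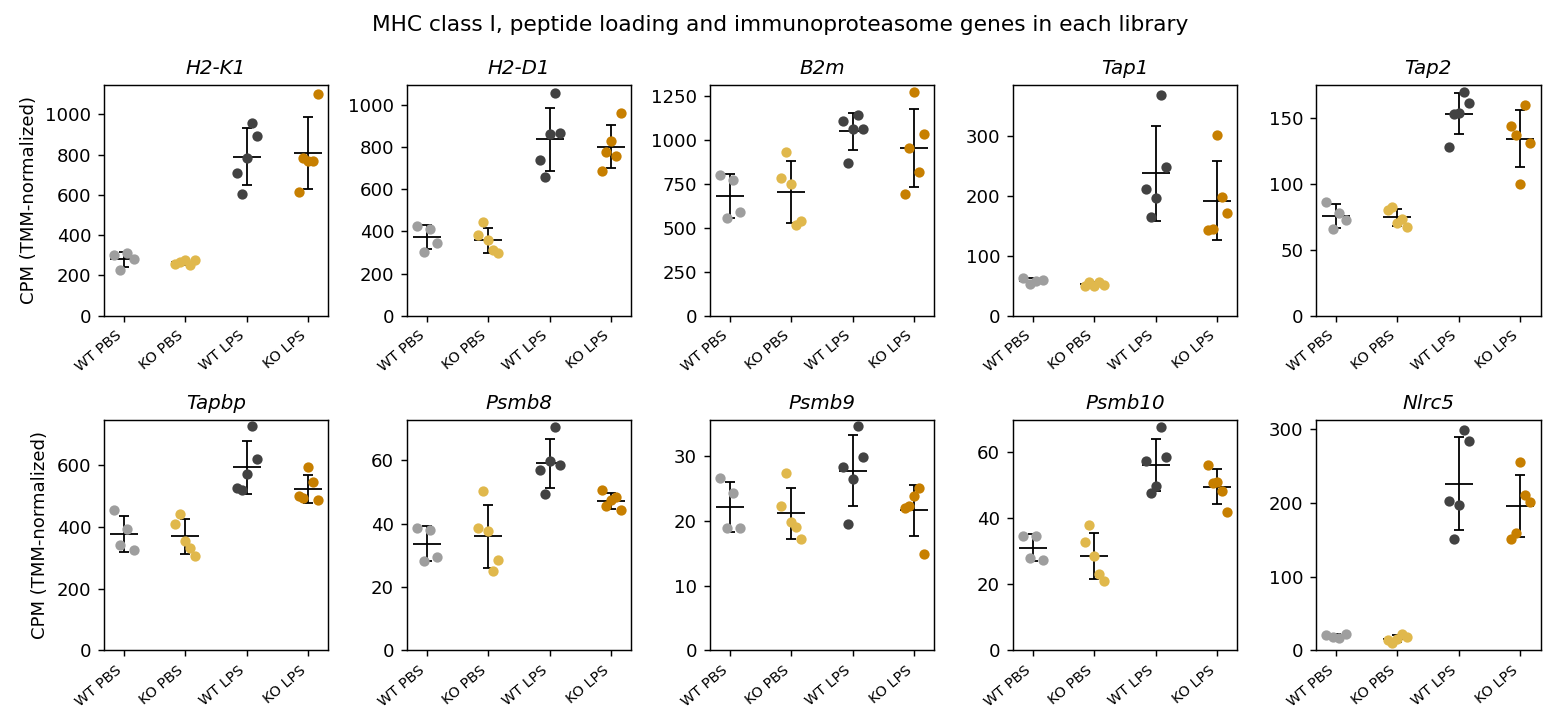
CPM of each of the 10 genes in every library by group, with points for single mice and bars for the mean and SD (n = 4 for WT PBS and n = 5 for the other groups); each vertical axis starts at 0. The LPS points of 9 genes lie above all WT baseline points in WT mice, and those of Psmb9 overlap in both genotypes.

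The first comparison asked which of these genes responded to LPS. In WT mice 9 of the 10 members were higher after LPS, all but Psmb9, with an adjusted p under 0.05 and a log2 fold change (log2FC) of at least 0.5, against 18.4% of all genes tested that were higher by this rule. In the 9 genes no LPS mouse overlapped with a baseline mouse, which held in this direction for 20.8% of all genes. In KO mice 7 of 10 were higher by the same rule, against 20.1% of all genes, and the same 7 did not overlap, against 16.2% of all genes. The members' median log2FC was 0.93 in WT and 0.82 in KO mice, while the median over all genes was -0.06 and -0.01. No member was lower.

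Nlrc5 showed the largest change of the group. WT baseline mice had 20.2, 17.8, 17.3 and 22.8 CPM, and WT LPS mice 203, 151, 197, 299 and 284 CPM. KO baseline mice had 13.8, 10.4, 15.6, 22.1 and 17.7 CPM, and KO LPS mice 151, 159.8, 255, 211 and 202 CPM. Every LPS mouse was far above every baseline mouse of either genotype. The rise was 11.6-fold in WT mice (log2FC 3.53, SE 0.245, edgeR adjusted p = 3.84e-09) and 12.3-fold in KO mice (log2FC 3.62, SE 0.224, edgeR adjusted p = 6.15e-10).

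H2-K1 and H2-D1 encode the classical heavy chains that hold the peptide. H2-K1 was at 302, 225, 311 and 281 CPM in WT baseline mice and at 711, 605, 783, 959 and 893 CPM in WT LPS mice. In KO mice it was at 256, 268, 276, 249 and 276 CPM at baseline and at 617, 784, 769, 769 and 1102 CPM after LPS. Mouse 5 of the KO LPS group was the highest of all 19. The rise was 2.82-fold in WT (log2FC 1.50, SE 0.161, edgeR adjusted p = 5.24e-07) and 3.05-fold in KO mice (log2FC 1.61, SE 0.15, edgeR adjusted p = 6.54e-08). H2-D1 went from 303 to 426 CPM at baseline to 661 to 1058 CPM after LPS in WT mice, and from 296 to 445 CPM to 688 to 964 CPM in KO mice. Its rise was 2.25-fold in WT (log2FC 1.17, SE 0.159) and 2.24-fold in KO mice (log2FC 1.16, SE 0.147), with edgeR adjusted p = 7.82e-06 and 2.86e-06.

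B2m, the light chain shared by all class I heavy chains, had a smaller log2FC. WT baseline mice had 800.2, 559, 772 and 589.8 CPM and WT LPS mice 1107, 868, 1061, 1145 and 1064 CPM, with no overlap. KO baseline mice had 784, 934, 749, 518 and 539 CPM and KO LPS mice 692, 956, 1276, 817 and 1032 CPM, which overlapped. The log2FC was 0.62 in WT mice (SE 0.194, edgeR adjusted p = 0.0138) and 0.44 in KO mice (SE 0.181, 95% interval 0.06 to 0.82, edgeR adjusted p = 0.0557). The KO value passed both thresholds without KO LPS mouse 1 (0.55), KO LPS mouse 4 (0.51) or KO baseline mouse 2 (0.56), and without the 4 libraries richest in oligodendrocyte markers (0.59). Without KO LPS mouse 3 it was 0.31 (edgeR adjusted p = 0.172).

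Tap1, whose product forms the peptide channel together with that of Tap2, was at 63.1, 53.7, 58.2 and 58.9 CPM in WT baseline mice and at 212, 165, 197, 369.7 and 249 CPM in WT LPS mice. KO mice had 48.8 to 56.8 CPM at baseline and 144, 144, 302, 198 and 172 CPM after LPS. The highest LPS mouse had more than 2 times the lowest in each genotype, while the baseline mice lay close together. Tap1 rose 4.08-fold in WT (log2FC 2.03, SE 0.226, edgeR adjusted p = 8.16e-07) and 3.68-fold in KO mice (log2FC 1.88, SE 0.208, edgeR adjusted p = 5.37e-07). Tap2 rose 2.03-fold in WT (log2FC 1.02, SE 0.125, edgeR adjusted p = 2.38e-06), from 65.5 to 86.6 CPM at baseline to 128 to 170.2 CPM. In KO mice it rose 1.8-fold (log2FC 0.85, SE 0.116, edgeR adjusted p = 6.98e-06), from 67.3 to 82.5 CPM to 100.1 to 159.9 CPM.

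Tapbp, which bridges the transporter and the empty class I molecule, rose 1.57-fold in WT mice (log2FC 0.65, SE 0.136, edgeR adjusted p = 0.000737), from 324 to 453 CPM at baseline to 520.0 to 727 CPM. In KO mice it went from 305 to 444 CPM to 487 to 593 CPM, a log2FC of 0.50 (SE 0.127, edgeR adjusted p = 0.00292) that lay at the fold threshold. Without KO LPS mouse 3, KO baseline mouse 4 or KO baseline mouse 5 the log2FC was 0.46, 0.47 and 0.46, under that threshold. It was also under it with library totals alone (0.40), without a low-count filter (0.48) and with at least 10 counts in every library (0.46).

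The immunoproteasome subunits were the least responsive members beside B2m and Tapbp, and they differed among themselves. Psmb10 (the subunit MECL-1) went from 34.6, 27.9, 34.5 and 27.4 CPM in WT baseline mice to 57.3, 47.5, 49.7, 67.5 and 58.4 CPM after LPS. In KO mice it went from 20.9 to 38.1 CPM to 41.9 to 56.1 CPM, again without overlap. The log2FC was 0.85 in WT (SE 0.16, edgeR adjusted p = 0.000268) and 0.79 in KO mice (SE 0.15, edgeR adjusted p = 0.000237).

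Psmb8 (LMP7) stood at 38.8, 28.4, 38.1 and 29.6 CPM in WT baseline mice and at 56.8, 49.3, 59.9, 70.6 and 58.7 CPM in WT LPS mice. KO baseline mice had 38.5, 50.3, 37.8, 25 and 28.4 CPM and KO LPS mice 50.7, 45.6, 47.4, 48.4 and 44.3 CPM. The WT groups were apart, while KO baseline mouse 2 reached the level of the KO LPS mice. The log2FC was 0.81 in WT (SE 0.167, edgeR adjusted p = 0.000641) and 0.39 in KO mice (SE 0.155, edgeR adjusted p = 0.0460), below the fold threshold of 0.5. Without KO baseline mouse 2 the KO value was 0.54 and passed, and without KO baseline mouse 4 it was 0.29 (edgeR adjusted p = 0.128).

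Psmb9 (LMP2) was the member that did not pass in either genotype. WT baseline mice had 26.6, 18.9, 24.2 and 18.9 CPM and WT LPS mice 28.3, 19.5, 26.4, 34.7 and 29.8 CPM. KO baseline mice had 22.3, 27.4, 19.8, 19.1 and 17.2 CPM and KO LPS mice 22, 22.3, 23.8, 25.1 and 14.9 CPM. The groups overlapped in both genotypes. The log2FC was 0.32 in WT (95% interval -0.06 to 0.71, edgeR adjusted p = 0.174) and 0.03 in KO mice (95% interval -0.33 to 0.39, edgeR adjusted p = 0.903). Psmb9 and Tap1, with their starts 363 bases apart, therefore lay at opposite ends of the response apart from Nlrc5, with a 4.08-fold against a 1.25-fold difference in WT mice. The KO value of Psmb9 was below 0 when libraries were scaled to their totals alone (-0.059), with at least 10 counts required in every library (-0.013) and without KO baseline mouse 5 (-0.019).

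**Figure D2:**
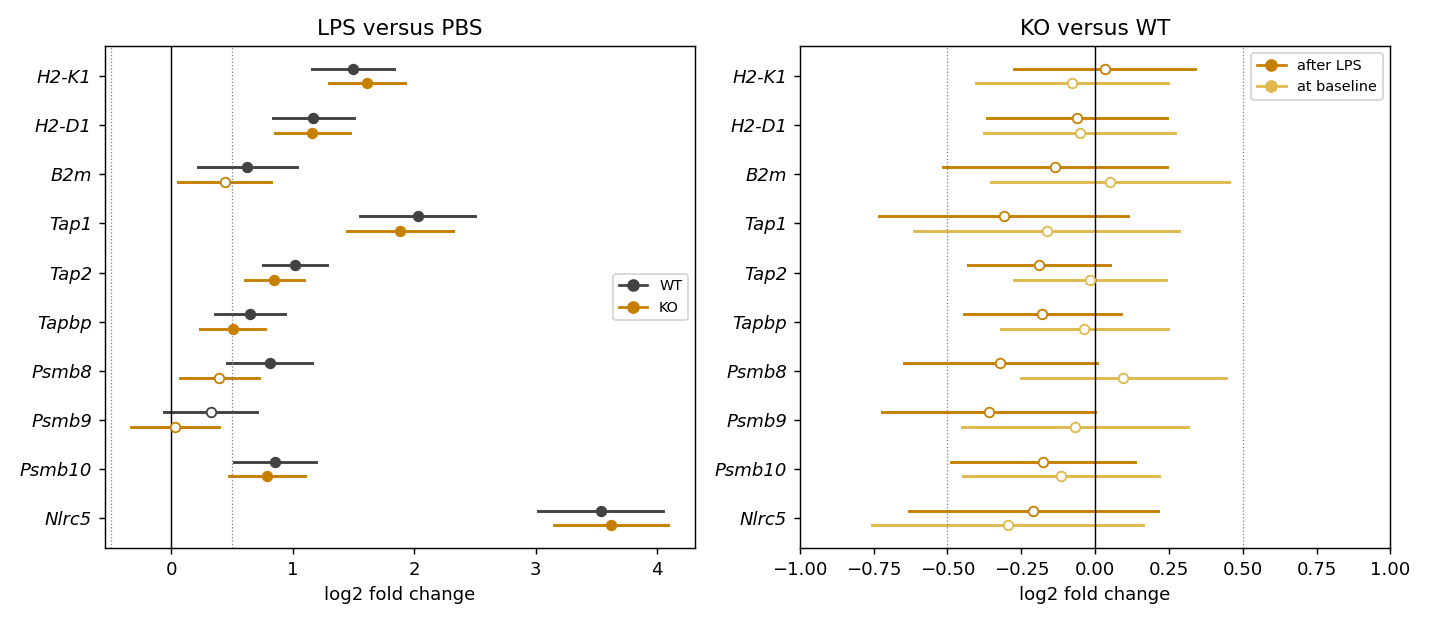
Log2 fold changes with 95% intervals for the 10 genes, LPS versus PBS in WT and KO mice on the left and KO versus WT after LPS and at baseline on the right; filled points passed the call rule of their comparison and dotted lines mark a log2FC of 0.5 in either direction. The left panel holds 9 filled points for WT and 7 for KO, from Tapbp at 0.50 to Nlrc5 at 3.62, and the right panel holds none.

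Whether the response to LPS differed between genotypes was tested as the interaction of genotype and LPS. By edgeR, 0 of 10 members had an adjusted p under 0.05, 0 of 10 had an unadjusted p under 0.05, and DESeq2 called 0 as well. The percentage of all genes called was 0. The largest difference belonged to Psmb8, whose log2FC with LPS was 0.81 in WT and 0.39 in KO mice (interaction -0.42, 95% interval -0.89 to 0.06, edgeR adjusted p = 1.00). For Psmb9 it was -0.29 (95% interval -0.82 to 0.23), and for the remaining 8 members it lay between -0.19 and 0.11. Without KO baseline mouse 2 the interaction was -0.27 for Psmb8 and -0.18 for Psmb9. It was -0.52 for Psmb8 without KO baseline mouse 4 and -0.40 for Psmb9 without WT LPS mouse 2. An unadjusted p under 0.05 was reached by 1 member without KO baseline mouse 4, without KO baseline mouse 5 and with library totals alone, and by 0 in the other settings. The intervals of H2-K1 (-0.34 to 0.56) and Nlrc5 (-0.54 to 0.71) leave room for moderate differences in either direction. The counts of 9 and 7 members called in the 2 genotypes are thus not shown to differ. The comparisons of LPS within each genotype share their mice with those of genotype within each treatment.

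The second comparison asked how PARK7/DJ-1 deficiency bears on these genes after LPS. The call rule was that of the study, an unadjusted p under 0.05 with a log2FC of at least 0.5 in either direction. No member was called by edgeR, 0 had an unadjusted p under 0.05 and DESeq2 called 0, against 1.31% of all genes called by this rule. All adjusted p were 1.00, and 0 of 10 had groups that did not overlap, against 0.219% of all genes. The log2FC was below 0 for 9 of the 10, all but H2-K1, and for 46.7% of all genes. The members' median was -0.18 and that of all genes 0.02. The 10 values come from the same mice and move together between libraries, so these signs are not independent of each other. Among the cell type markers of the same comparison, Ncr1 alone passed the rule. All 7 endothelial markers were below 0 (-0.59 to -0.01), as were 8 of 10 neutrophil and monocyte markers (-0.69 to 0.41), 5 of 7 border-associated macrophage markers and 5 of 10 microglial markers. Of the 10 T and NK lymphocyte markers 4 were tested, 3 of them below 0, and the NK receptor gene Ncr1 stood at -1.63 (edgeR adjusted p = 1.00). Oligodendrocyte, astrocyte and neuron markers were below 0 in 2 of 5, 1 of 5 and 1 of 4. Their part in the members' values was not tested.

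Psmb8 and Psmb9 were closest to the threshold. All 5 KO LPS mice lay below the WT LPS mean for Psmb8 and Psmb9, and 4 of 5 lay below the lowest WT LPS mouse for Psmb8, where only KO mouse 1 overlapped. Psmb9 differed by -0.36 (SE 0.172, 95% interval -0.72 to 0.0013) and Psmb8 by -0.32 (SE 0.155, 95% interval -0.65 to 0.0051), both short of the unadjusted threshold and with an edgeR adjusted p = 1.00. For Psmb10 the difference was -0.18 (95% interval -0.49 to 0.13). Without WT LPS mouse 4, Psmb9 stood at -0.27 and Psmb8 at -0.25, and without WT LPS mouse 2 at -0.46 and -0.38. An unadjusted p under 0.05 was reached by 2 members without KO LPS mouse 3, KO LPS mouse 4, WT LPS mouse 2 or the oligodendrocyte-rich libraries. It was reached by 1 member without WT LPS mouse 1 or with the 2 groups alone, by 3 with library totals alone and by 0 in the other settings.

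Tap1 differed by -0.31 (SE 0.201, 95% interval -0.73 to 0.11), with 4 of 5 KO mice below the WT mean. KO LPS mouse 3, at 302 CPM, was the exception, and without it Tap1 passed the rule at -0.53 (edgeR adjusted p = 1.00). Without WT LPS mouse 4, the highest of its group, Tap1 stood at -0.096. Tap2 differed by -0.19 (95% interval -0.43 to 0.05), Tapbp by -0.18 (95% interval -0.45 to 0.09) and Nlrc5 by -0.21 (95% interval -0.63 to 0.21). B2m differed by -0.14 (95% interval -0.51 to 0.24). These values also moved with single mice. Without WT LPS mouse 4, Nlrc5 stood at -0.089, Tapbp at -0.095 and Psmb10 at -0.10. Without KO LPS mouse 3, Tap2 stood at -0.10, B2m at -0.26 and Nlrc5 at -0.32. Without KO LPS mouse 1, B2m stood at -0.034.

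The heavy chains lay nearest to 0 in this comparison. H2-D1 differed by -0.06 (95% interval -0.36 to 0.25) and H2-K1 by 0.03 (95% interval -0.27 to 0.34). H2-K1 turned below 0 when libraries were scaled to their totals alone (-0.032), and all 10 members were then below 0. Scaling to totals alone also moved the median of all genes, by -0.06 here and by -0.11 in LPS versus PBS in KO mice.

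At baseline, too, no member was called between genotypes: 0 by edgeR, 0 with an unadjusted p under 0.05 and 0 by DESeq2, against 0.8% of all genes. The values lay between -0.30 for Nlrc5 (95% interval -0.75 to 0.16) and 0.10 for Psmb8 (95% interval -0.25 to 0.44), and 8 of 10 were below 0, as were 49.3% of all genes. In 0 of 10 were the groups apart, against 0.971% of all genes. Their median was -0.06. Without KO baseline mouse 5 or WT baseline mouse 1, 4 of 10 were below 0 and the median was 0.01 and 0.027, and without KO baseline mouse 2 all 10 were below 0. Without the library richest in oligodendrocyte markers of each group all 10 were below 0 as well, with a median of -0.19. Nlrc5 stood at -0.18 without KO baseline mouse 2 and at -0.44 without KO baseline mouse 4. All 5 KO baseline mice lay below the WT baseline mean for H2-K1 and Tap1, and 3 of 5 lay below the lowest WT mouse for Tap1 and for Nlrc5. For B2m, 1 KO mouse lay above the highest WT mouse and 2 lay below the lowest.

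The proteasome subunits were next set against their constitutive counterparts inside each library, where scaling cancels. Psmb8 takes the place of Psmb5, Psmb9 that of Psmb6 and Psmb10 that of Psmb7. The 3 constitutive genes rose with LPS in both genotypes, by 0.66 to 0.76 on the log2 scale. The ratio of Psmb9 to Psmb6 counts was 0.552, 0.40, 0.531 and 0.392 in WT baseline mice and 0.36, 0.29, 0.365, 0.393 and 0.322 in WT LPS mice. In KO mice it was 0.452, 0.475, 0.40, 0.397 and 0.387 at baseline and 0.253, 0.249, 0.311, 0.342 and 0.158 after LPS. In WT mice only LPS mouse 4 reached the lowest baseline value, and in KO mice the LPS values all lay below baseline.

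The log2 ratio of Psmb9 to Psmb6 differed by -0.73 between LPS and baseline in KO mice, from -1.25 ± 0.131 to -1.97 ± 0.429 (SD, n = 5 each, exact two-sided permutation p = 0.00794, adjusted over 12 such tests p = 0.0952). That p is the smallest the groups allow, and a single comparison at it cannot pass the adjusted threshold over 12 tests. In WT mice the difference was -0.43 (n = 4 and 5, exact two-sided permutation p = 0.0238, adjusted p = 0.143). None of the 12 tests had an adjusted p under 0.05. With 5 in place of 0.5 added to each count, both differences had an exact permutation adjusted p of 0.0476. Between the genotypes after LPS the ratio differed by -0.44 (exact two-sided permutation p = 0.0556, adjusted p = 0.190), and by -0.26 without KO LPS mouse 5.

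The ratio of Psmb8 to Psmb5 lay between 2.35 and 4.05 in WT baseline mice and 2.73 and 3.97 in WT LPS mice, and between 2.62 and 3.81 in KO baseline mice and 2.22 and 3.37 in KO LPS mice. The LPS difference of its log2 value was 0.14 in WT and -0.28 in KO mice, with exact permutation adjusted p = 0.528 and 0.210. The WT value was 0.027 without WT baseline mouse 2 and 0.29 without WT baseline mouse 3. The ratio of Psmb10 to Psmb7 lay between 0.651 and 1.16 in all 19 libraries. Its LPS difference was 0.16 in WT and 0.15 in KO mice, both with an exact permutation adjusted p = 0.438. With single mice left out, these ranged from 0.09 (without WT LPS mouse 4) to 0.24 (without WT baseline mouse 3) and from 0.078 (without KO LPS mouse 1) to 0.25 (without KO LPS mouse 5).

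**Figure D3:**
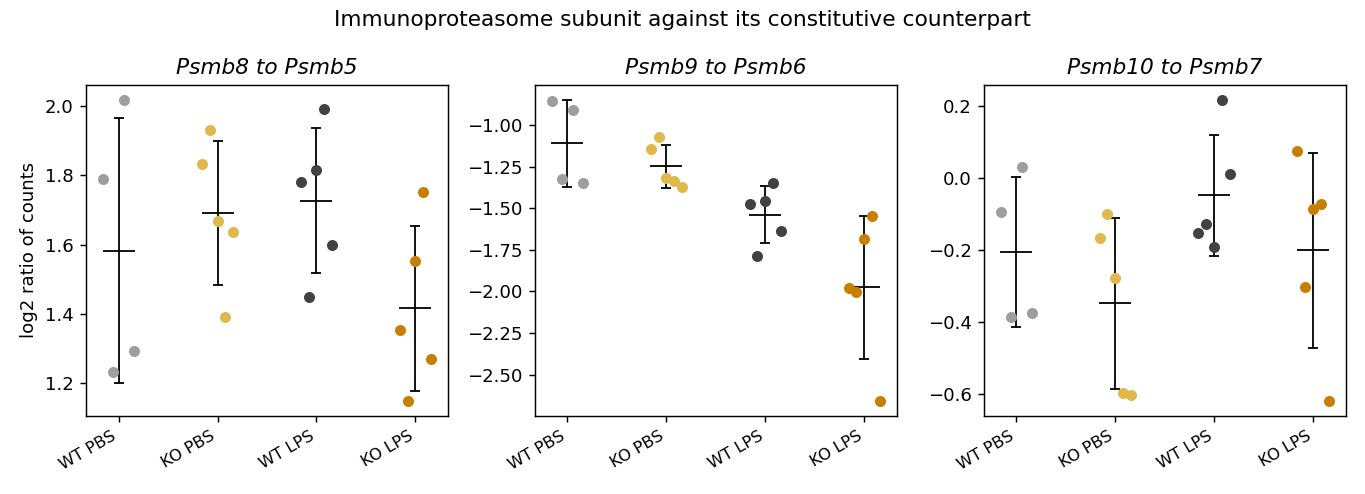
Log2 ratio of the counts of each immunoproteasome subunit to those of its constitutive counterpart in every library, with points for single mice and bars for the mean and SD (n = 4 for WT PBS and n = 5 for the other groups). The mean Psmb9 to Psmb6 value is -1.11 at baseline and -1.54 after LPS in WT mice, and -1.25 and -1.97 in KO mice, with KO LPS mouse 5 the lowest point.

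Other genes of the pathway gave the wider setting. Of 43 listed genes 40 were tested (H2-Q1, H2-Q2 and H2-M2 were not), and 21 were higher and 4 lower after LPS in each genotype by the rule used above, where 17.4% of all genes were lower in WT and 19% in KO mice. Among 12 tested class I and class I-like genes, 6 were higher in both genotypes: H2-Q4, H2-Q6, H2-Q7, H2-Q10, H2-T10 and H2-T22. H2-Q6 had the largest log2FC, 3.05 (SE 0.315) in WT and 3.13 (SE 0.29) in KO mice, from a mean level of 1.97 CPM to 16.4 CPM in WT. In each genotype 4 were lower. Called in both were Mr1, which presents microbial metabolites, by -1.90 in WT and -2.05 in KO mice, Fcgrt, which recycles IgG and albumin, by -1.33 and -1.20, and the lipid-presenting Cd1d1 by -0.84 and -0.95. The fourth was H2-M3 in WT mice (-0.54, with -0.45 in KO) and H2-T24 in KO mice (-0.95, with -0.49 in WT).

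Among 5 loading and trimming genes, Tapbpl (log2FC 1.14 and 1.18 in WT and KO) and the trimming peptidase Erap1 (0.77 and 0.80) were higher in both genotypes. The chaperones Calr and Canx had log2FC between -0.01 and 0.20 and did not pass, nor did Pdia3, at -0.34 and -0.24. Of the proteasome activator and assembly genes, all 3 PA28 subunits were higher, Psme1 by 1.16 and 0.97, Psme2 by 1.82 and 1.71 and Psme3 by 1.27 and 1.28. The assembly factor Pomp, at -0.13 and -0.18, was not called. Among 15 transcription factors, 7 were higher in both genotypes. Among them were Stat2 (2.40 and 2.25), Irf1 (1.81 and 1.45), Irf9 (1.45 and 1.53), Nfkb1 (1.02 and 1.20), Nfyb (0.77 and 1.16) and Rela (0.63 and 0.77). Rfx5, Rfxap and Rfxank, whose products hold NLRC5 at the promoter, were not called in either genotype, with Rfxank the farthest from 0 at -0.32 and -0.47.

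Between genotypes 1 of the 40 pathway genes was called after LPS and 0 at baseline by edgeR, and DESeq2 gave the same counts of 1 and 0. Over all genes the shares called were 1.31% and 0.8%. By edgeR 5 and 0 of the 40 had an unadjusted p under 0.05, against 482 and 195 of all 18739 genes. The 1 gene was Ciita, the class II counterpart of Nlrc5. It stood at 10.7, 6.51, 6.62, 5.14 and 7.16 CPM in WT LPS mice and at 2.7, 4.52, 6.04, 4.25 and 2.74 CPM in KO LPS mice. The log2FC was -0.83 (SE 0.235, edgeR adjusted p = 1.00), where Nlrc5 stood at -0.21. The other 4 fell short of the fold threshold. Among them, H2-T10, a class I-like gene, lay at 3.75 to 5.40 CPM in WT LPS mice and 3.02 to 3.54 CPM in KO LPS mice without overlap (log2FC -0.49), while H2-T23 (-0.32), H2-T24 (-0.39) and Nfyb (0.38) overlapped. These genes were picked out after their values had been seen. The interaction called 0 of the 40 by edgeR and by DESeq2, with 1 at an unadjusted p under 0.05 by edgeR.

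The mice of a group did not vary independently from gene to gene. WT LPS mouse 4 was the highest of its group in 10 of 10 members, and WT LPS mouse 2 the lowest in 9 of 10. At baseline, WT mouse 1 was highest in 8 members and WT mouse 2 lowest in 7, and KO mouse 2 was highest in 8. The KO LPS group had no such leader, since KO mouse 3 was highest in 4 members and KO mouse 1 lowest in 5. The mean of the 10 genes, each centred on its own mean log2 CPM, ranged from 0.35 to 0.98 in WT LPS mice and from 0.33 to 0.62 in KO LPS mice, and from -0.84 to -0.39 in the baseline mice of both genotypes.

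Other cell markers moved with this order. WT LPS mouse 4 had the highest sums of its group for neutrophil and monocyte markers (589.9 CPM) and for T and NK lymphocyte markers (11.9 CPM). The mouse with the lowest members' mean was also the one with the highest oligodendrocyte marker sum in 3 of 4 groups: WT baseline mouse 2 at 9675 CPM, WT LPS mouse 2 at 6692 CPM and KO LPS mouse 1 at 11235 CPM. The same 3 mice had the highest endothelial sums of their groups, 1008, 731 and 778 CPM, and WT baseline mouse 2 and KO LPS mouse 1 also the highest astrocyte sums, 2636 and 3966 CPM. In the KO baseline group the lowest members' mean was that of mouse 5, whose oligodendrocyte sum of 1052 CPM was among the lowest. The microglial marker sum followed the members' mean in rank at baseline. From the highest members' mean to the lowest it was 38963, 35040, 27028 and 24831 CPM in WT mice, and 39842, 33121, 30501, 26950 and 26169 CPM in KO mice. After LPS it did not, and WT LPS mouse 4 had the lowest microglial sum of its group, 10637 CPM. In KO LPS mice the neutrophil and monocyte sum followed the same rank, at 552, 425, 328, 256 and 152 CPM, and so did the border-associated macrophage sum, at 492, 482, 355, 344 and 274 CPM. The T and NK lymphocyte sum, at a low level, did so too, at 5.68, 5.48, 3.39, 3.26 and 2.81 CPM. In the WT LPS group each of these sums was highest in mouse 4 but did not follow the rank below it. In the KO baseline group the neutrophil and monocyte sum was highest, at 196 CPM, in mouse 4, the second lowest in members' mean. The part of these markers in the members' levels was not tested. Without the library richest in oligodendrocyte markers of each group, 9 members were still higher with LPS in WT mice, 8 in KO mice and 0 were called between genotypes, and 9 of 10 were below 0 after LPS. Psmb9 then differed by -0.47 and Psmb8 by -0.40 between genotypes after LPS, both with an unadjusted p under 0.05 but short of the fold threshold. Without WT LPS mouse 4, 8 of 10 were below 0 after LPS, with a median of -0.10 in place of -0.18. The median was -0.25 without KO LPS mouse 3 and -0.23 without WT LPS mouse 1. All 10 were below 0 without KO LPS mouse 5, WT LPS mouse 1 or WT LPS mouse 2.

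**Figure D4:**
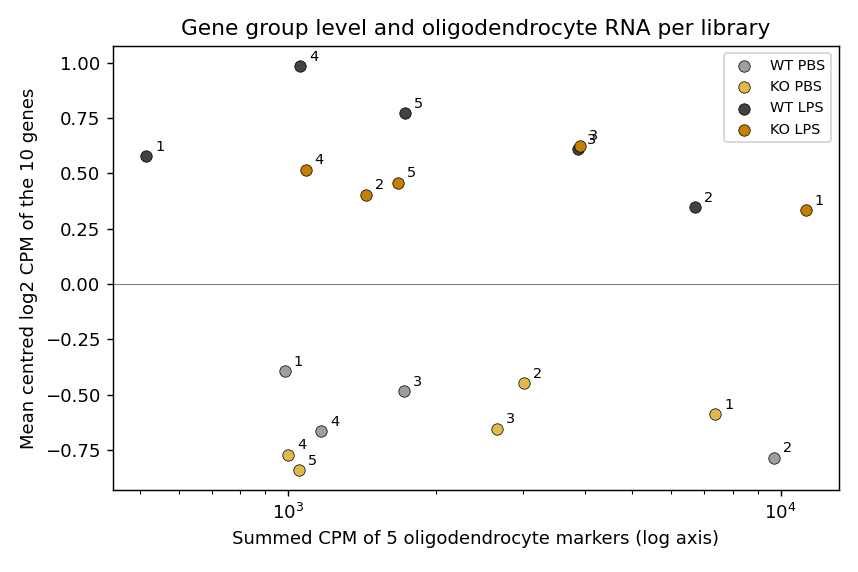
Mean centred log2 CPM of the 10 genes against the summed CPM of 5 oligodendrocyte markers (log axis) in each of the 19 libraries, coloured by group and numbered by mouse. All LPS libraries lie at 0.33 or above and all baseline libraries at -0.39 or below, across marker sums from 515 to 11235 CPM.

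The genes outside the list whose pattern over the 19 libraries was most like the members' mean were named by the root mean square difference of centred log2 CPM. The nearest were Tor3a (0.103), Marchf1 (0.134), Psme1 (0.138) and Znfx1 (0.144), against a median of 0.835 over all 18739 genes. Among the members themselves, H2-D1 was nearest to their mean (0.109), Psmb9 stood at 0.532 and Nlrc5 was farthest at 1.23. Tor3a, an ATPase of the endoplasmic reticulum, rose by 1.37 in WT and 1.29 in KO mice on the log2 scale. This likeness is a description over libraries that share their treatment.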

How the data were processed

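The authors trimmed paired reads of 75 bp with Cutadapt, aligned and counted them with STAR 2.7.9a on GRCm39 (Ensembl annotation), and deposited raw counts per gene for 19 mice, without normalization. Libraries were stranded total RNA after ribosomal depletion. Columns were matched to mice by name. Total counts were 11936364 to 22788884, so 3 counts equal at most 0.256 CPM, which covers counting error only. The 36 pairs of libraries that shared a group all differed beyond sampling noise.

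Counts were analysed with edgeR 4.0.16 in R 4.3.3: filterByExpr (minimum count 10, minimum total 15), TMM, and 1 quasi-likelihood fit of 4 groups. KO versus WT used an unadjusted p under 0.05 and |log2FC| of at least 0.5, LPS versus PBS an adjusted p under 0.05 and the same fold, both after the study, and the interaction an adjusted p under 0.05. P-values were adjusted over all 18739 genes by Benjamini-Hochberg. SE is the size of the log2FC over the root of F. Each edgeR p-value sets a difference against the spread between mice, estimated over the 4 groups together. CPM used TMM-scaled library sizes. RPKM used the length of the canonical transcript in GENCODE M39, which also gave names and starts. Ratios used 0.5 added to each count and exact two-sided permutation tests. Scripts were tested on simulated data.

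The rule for named genes took every member, the listed pathway genes, the 5 nearest patterns, Park7 and the promoter motifs, and a few of these are not reported here. The members and lists were chosen with earlier results of these data known. Of 63 markers 62 were matched (not Fcrls). Same-numbered mice are different animals, and not every same-numbered pair correlated above 0.1, so no block was used in the main fit. Alternatives covered DESeq2 1.42.0, scaling, filters, thresholds, the groups in the fit, a replicate block, the animal number and each mouse left out. Leaving out the library richest in oligodendrocyte markers of each group was added after the data were seen.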

Additional observations from a re-analysis of the deposited data

Results flagged for a closer look

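Of 52 groups of values examined for a sample far from the others, 2 were picked out by the gap to the nearest neighbour relative to the range of the group, where chance alone picks about 1 in 20. In WT LPS mouse 2, B2m was the lowest of its group at 9.76 log2 CPM, with the next mouse at 10.05. In KO LPS mouse 5, Psmb9 was the lowest of its group at 3.91 log2 CPM, with the next mouse at 4.47. The same KO mouse had the highest H2-K1 level of all 19 libraries, 1102 CPM, and the lowest endothelial marker sum of its group, 79.1 CPM, whose part in the Psmb9 value was not tested.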

How the results depend on the processing

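The 9 members called with LPS in WT mice, and 0 members called at baseline or in the interaction, held under all alternatives tried. In KO mice 6 to 9 members were called. Between genotypes after LPS, 0 members were called except without KO LPS mouse 3 (0 to 1 over mice left out). All-gene counts for KO versus WT after LPS moved from 245 to 471 with DESeq2, 2 with an adjusted p, 111 with at least 10 counts in every library, 105 with the 2 groups alone and 854 without a filter, and ranged from 228 to 434 over mice left out, highest without KO LPS mouse 5. At baseline 150 became 332, 1, 58, and 680 (DESeq2, adjusted p, stricter filter, no filter), 253 with the animal number, and 234 with a replicate block. Same-numbered mice were not treated as pairs in the main fit. Their mean correlations were -0.10 and -0.0060 for KO versus WT after LPS and at baseline. For LPS versus PBS they were 0.33 in WT and 0.25 in KO mice. In the same order, 1 of 10, 3 of 9, 5 of 9 and 6 of 10 mice correlated best with their own number. Likeness by number was thus higher within a genotype than between genotypes. A replicate block changed no call of a member. The pathway count after LPS was 0 with an adjusted p, 2 with library totals, no filter, the stricter filter, the animal number or without the oligodendrocyte-rich libraries, and 1 to 3 over mice left out (3 without WT LPS mouse 2). With 5 added to each count, the LPS differences of Psmb9 to Psmb6 (-0.43 in WT, -0.72 in KO) passed. Signs turned for values near 0. H2-K1 after LPS went to -0.032 with library totals and -0.025 with the animal number. Psmb9 with LPS in KO went to -0.059 with library totals and -0.013 with the stricter filter. The H2-D1 interaction (-0.0078) went to 0.024 with DESeq2 or its size factors, 0.0019 without a filter, 0.0075 with the stricter filter and 0.11 without the oligodendrocyte-rich libraries. Without these libraries, B2m at baseline went to -0.10, Psmb8 at baseline to -0.034, the B2m interaction to 0.0038 and the Psmb8 to Psmb5 baseline difference to -0.043. Over mice left out, values crossing 0 ranged, after LPS, from -0.11 to 0.12 for H2-K1 and -0.13 to 0.039 for H2-D1. At baseline they ranged from -0.14 to 0.020 for H2-D1, -0.071 to 0.14 for B2m, -0.076 to 0.054 for Tap2, -0.11 to 0.064 for Tapbp, -0.055 to 0.20 for Psmb8, -0.18 to 0.033 for Psmb9 and -0.0081 to 0.25 for Psmb8 to Psmb5. Psmb9 with LPS in KO ranged from -0.019 to 0.14. Interactions ranged from -0.027 to 0.19 (H2-K1), -0.088 to 0.091 (H2-D1), -0.37 to 0.068 (Tap1), -0.16 to 0.062 (Psmb10) and -0.034 to 0.23 (Nlrc5). The cause was not tested. With 4 or 5 mice a group, the SE of the members' genotype differences after LPS was 0.115 to 0.201 log2 units, which limits the size of a difference that could be seen.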
